A study of Mus musculus with 8 samples.

Results

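Homeobox genes of the NK-like, Iroquois, sine oculis (such as *Six2* and *Six5*) and Dlx families were measured on expression arrays of mouse embryonic stem (ES) cells before and after differentiation with retinoic acid (RA). The members were all genes whose name on the array belongs to the Nkx, Irx, sine oculis, Dlx, Msx, Emx, En, Gbx, Barx, Barhl, Vax, Evx, Mnx, Gsx, Tlx, Bsx or Dbx families. This gave 58 genes, with 72 probes and 99 spots, of the 36406 genes or transcripts that the array names. Where a gene had more than 1 probe, which was so for 12 of the 58, the brightest probe on average over the 8 arrays stood for the gene. A mean over both groups can favour a probe that is bright in 1 of them.

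The cells were E14Tg2A.4, an established line of mouse ES cells. Cells of the untreated group were kept in self-renewing culture, and cells of the RA group received 1 µM all-trans retinoic acid in medium without leukemia inhibitory factor for 3 days (72 hours in the labels). The groups therefore differ in RA and in that factor. Each group had 4 biological replicates, and the RNA of each replicate was hybridized to a 1-colour Agilent array. The arrays describe whole cultures of this line and not a tissue.

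Homeobox genes encode transcription factors that bind DNA through a homeodomain. Those of the NK, Msx, Dlx, Emx, En, Gbx and related families lie outside the Hox clusters and divide the embryo into territories. In the neural tube, Sonic hedgehog from the ventral midline and Bmp signals from the dorsal side set up bands of progenitors, each marked by its own homeodomain proteins, and many of these proteins repress each other in pairs. In ES cells such developmental regulators are a classic group of Polycomb targets, held silent until the cells differentiate.

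In self-renewing cells 33 of the 58 genes (56.9%) were well above background on all 4 arrays, a flag that the scanner software sets for each spot. After RA 45 of the 58 (77.59%) were, as were 21980 of the 36406 genes of the array. Genes with this flag are called detected. In all, 51 genes were well above background on at least 1 array, and 31 on all 8, a state of 56% of the array's genes. *Barhl2*, *Bsx*, *En1*, *Evx2*, *Six3*, *Six6* and *Tlx3* were above it on none, and nothing is said of a change in these 7 genes (12.07% of the members, against 25.2% of the array's genes). After RA 23 of the 58 genes (39.66%) were higher and 8 (13.79%) were lower, while 27 were not called. Over all genes of the array 13% were higher and 20% were lower by the same rule, so that higher members were more frequent than higher genes on the array as a whole and lower members were less frequent, a difference for which no test was made. Of the 51 detected members 45.1% were higher and 15.69% lower, against 17.3% and 26.8% of the 27234 genes detected on at least 1 array. A gene was called where limma, fitted over all probes, gave a Benjamini-Hochberg adjusted p under 0.05 and the change exceeded 1.5-fold. Where a gene was not well above background on any array of a group, the fold was taken at its lower bound, with each array of the dim group set to the lowest signal of any well-measured probe on that array, or to the gene's own value where that was higher. These bounds are written as "at least".

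The fold was measured on both sides for 14 of the 23 higher members and is a bound for the other 9. With the bounds in place the median rise was at least 5.558-fold, against at least 2.651-fold over all higher genes taken the same way. The measured rises ran from 1.665-fold for *Irx4* to 38.97-fold for *Irx3*. Of the 23 rises 13 exceeded 4-fold, with bounds counted as they stand. The size of these folds depended on the processing. With normexp background correction, run with an offset of 50, the median of the same 23 genes was 2.401-fold and 6 of them were called above 4-fold. The correction and the offset were changed together, so their parts cannot be told apart. The 8 falls ran from 1.632-fold for *Nkx2-2* to at least 17.44-fold for *Nkx6-3*, with a median of 2.738-fold, against at least 2.286-fold over all lower genes. The median log2 change was 0.34 over the 58 members and -0.28 over all genes. Quantile normalization, which gives all arrays 1 distribution, moved the members to 0.54 and all genes to -0.0013. With normexp the medians were 0.02 and -0.21, and with both steps 0.24 and -0.01. With dim groups at their bound, the median was 0.48 over the 51 detected members and -0.21 over the 27234 detected genes.

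**Figure D1:**
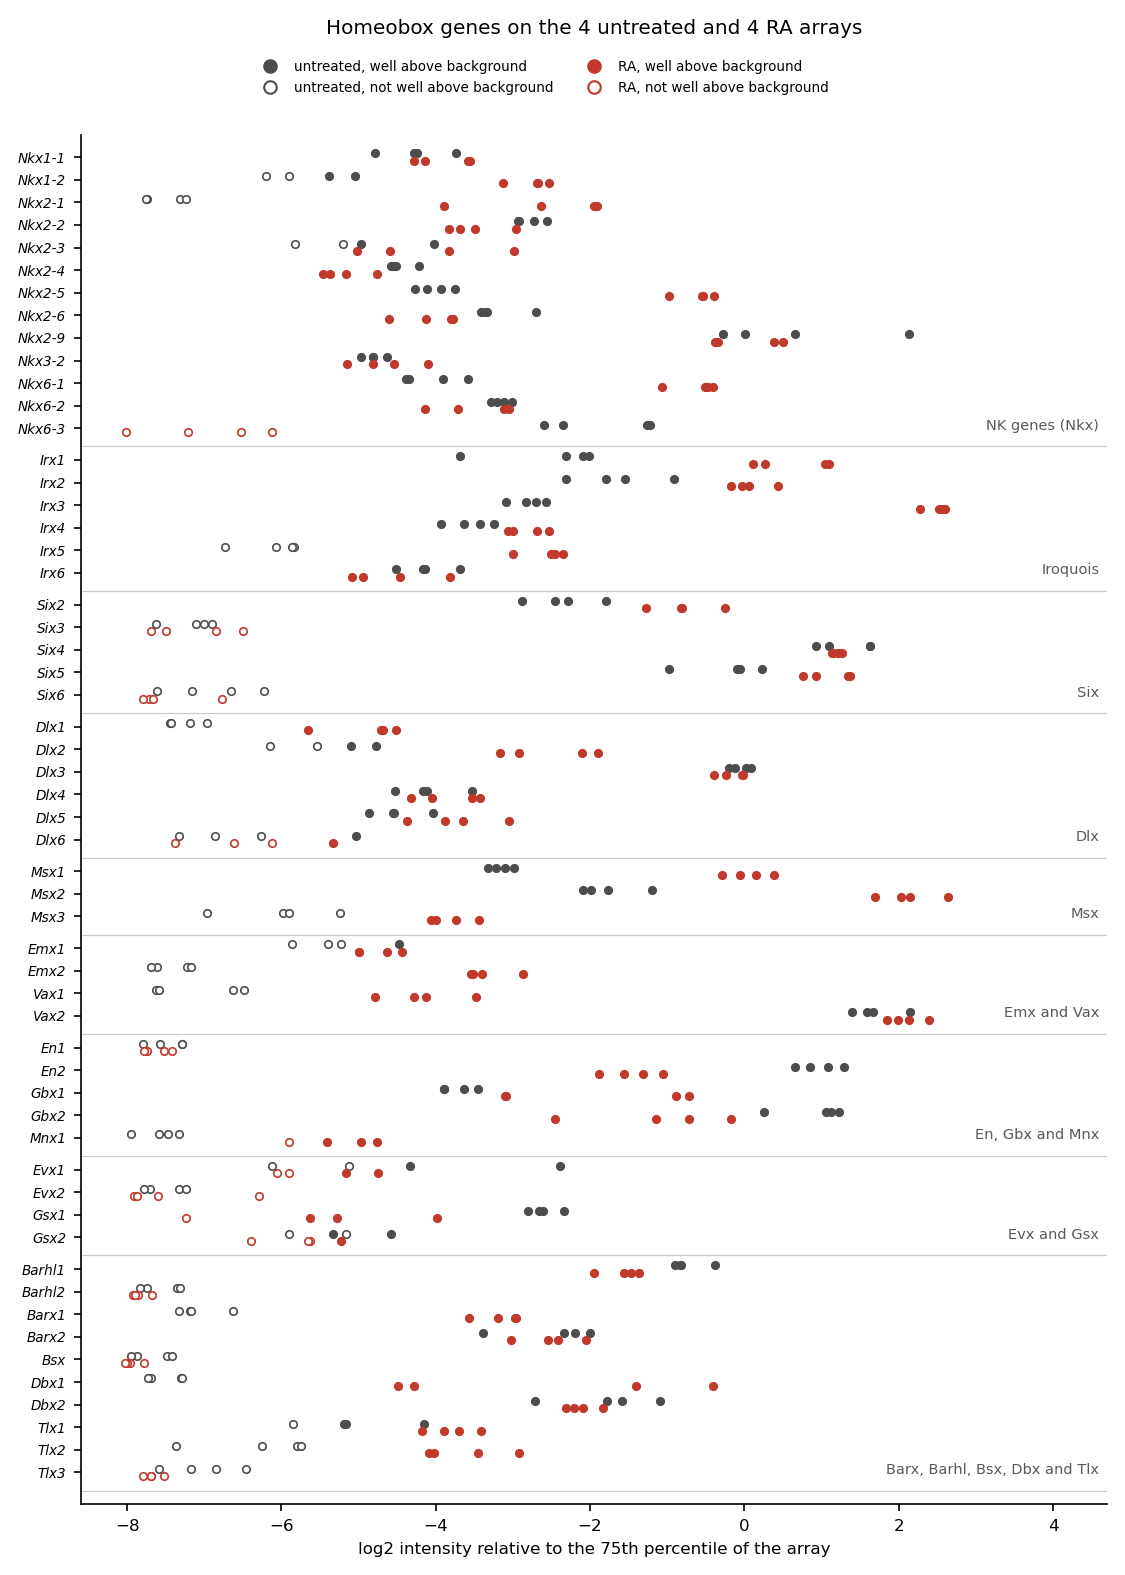
Log2 intensity of 56 of the 58 homeobox genes, relative to the 75th percentile of the array, on 4 untreated (grey) and 4 RA (red) arrays, grouped by family. Each point is 1 array and open points were not well above background. The red points lie right of all grey points for 23 genes and left of them for 8.

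On the array as a whole 15.3% of genes had all 4 RA values above all 4 untreated values and 25.3% had them all below. Among the members the RA arrays lay above without overlap for 23 genes. These were the higher genes without *Tlx1*, whose groups overlapped, and with *Mnx1*, whose rise had a bound of only 1.307-fold. They lay below without overlap for the 8 lower genes.

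The promoters of 5 members are shown because they belong to the genes on which the results turn. *Irx3* had the largest of the 14 measured rises. *Nkx6-1*, *Emx2* and *Nkx2-1* rose and *Gbx2* fell, and these 4 are on the study's list of genes with a peak of Cbx8, a Polycomb protein that the RA-treated cells make. Each line gives the 250 bases before the RefSeq start site in build GRCm38.p6, 5′ to 3′ along the gene, and capitals mark CpG dinucleotides. Windows are chr8:91801655-91801904 (minus strand) for *Irx3*, chr5:101664712-101664961 (minus) for *Nkx6-1*, chr19:59458440-59458689 (plus) for *Emx2*, chr12:56536909-56537158 (minus) for *Nkx2-1* and chr1:89931177-89931426 (minus) for *Gbx2*.
Irx3: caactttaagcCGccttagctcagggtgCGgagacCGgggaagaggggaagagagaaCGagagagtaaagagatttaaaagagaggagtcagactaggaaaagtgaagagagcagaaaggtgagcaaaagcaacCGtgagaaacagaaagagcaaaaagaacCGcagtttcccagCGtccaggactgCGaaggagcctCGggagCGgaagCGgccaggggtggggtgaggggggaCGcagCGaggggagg
Nkx6-1: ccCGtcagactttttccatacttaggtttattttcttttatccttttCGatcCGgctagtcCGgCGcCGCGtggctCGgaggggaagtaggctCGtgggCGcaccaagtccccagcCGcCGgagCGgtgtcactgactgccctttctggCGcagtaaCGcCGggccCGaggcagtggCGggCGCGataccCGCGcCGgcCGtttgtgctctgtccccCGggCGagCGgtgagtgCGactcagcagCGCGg
Emx2: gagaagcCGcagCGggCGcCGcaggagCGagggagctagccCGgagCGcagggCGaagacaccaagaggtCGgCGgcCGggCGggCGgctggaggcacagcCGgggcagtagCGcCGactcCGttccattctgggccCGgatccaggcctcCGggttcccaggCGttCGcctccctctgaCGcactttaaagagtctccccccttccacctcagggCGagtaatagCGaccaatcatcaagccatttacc
Nkx2-1: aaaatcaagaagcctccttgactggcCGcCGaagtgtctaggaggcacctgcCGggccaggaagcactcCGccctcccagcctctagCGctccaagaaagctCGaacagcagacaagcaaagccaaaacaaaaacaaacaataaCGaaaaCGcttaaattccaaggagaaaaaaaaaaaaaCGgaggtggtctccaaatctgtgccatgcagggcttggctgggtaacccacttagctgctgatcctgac
Gbx2: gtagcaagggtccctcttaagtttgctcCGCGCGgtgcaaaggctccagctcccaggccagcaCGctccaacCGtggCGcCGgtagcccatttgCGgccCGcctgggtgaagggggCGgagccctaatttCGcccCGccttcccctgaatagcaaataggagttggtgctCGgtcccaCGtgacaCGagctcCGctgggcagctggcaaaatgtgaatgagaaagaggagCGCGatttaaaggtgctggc

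The windows hold 13 CpGs at *Irx3*, 30 at *Nkx6-1*, 24 at *Emx2*, 9 at *Nkx2-1* and 18 at *Gbx2*. CpG-rich promoters are the usual sites of Polycomb complexes in ES cells. A promoter entry was found for 42 of the 58 members. Their median was 16.5 CpGs, against 10 for the 17492 protein-coding genes with an entry, and none of the 42 had fewer than 5, as 34.28% of the other protein-coding genes did. By a common definition of a CpG island, applied to these 250 bases (more than 50% G and C and an observed over expected CpG ratio above 0.6), 29 of the 42 (69.05%) would pass, against 41.45% of protein-coding genes. The median number of CpGs was 19 for the 19 higher members with an entry, 15 for the 5 lower ones and 15.5 for the 18 not called.

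**Figure D2:**
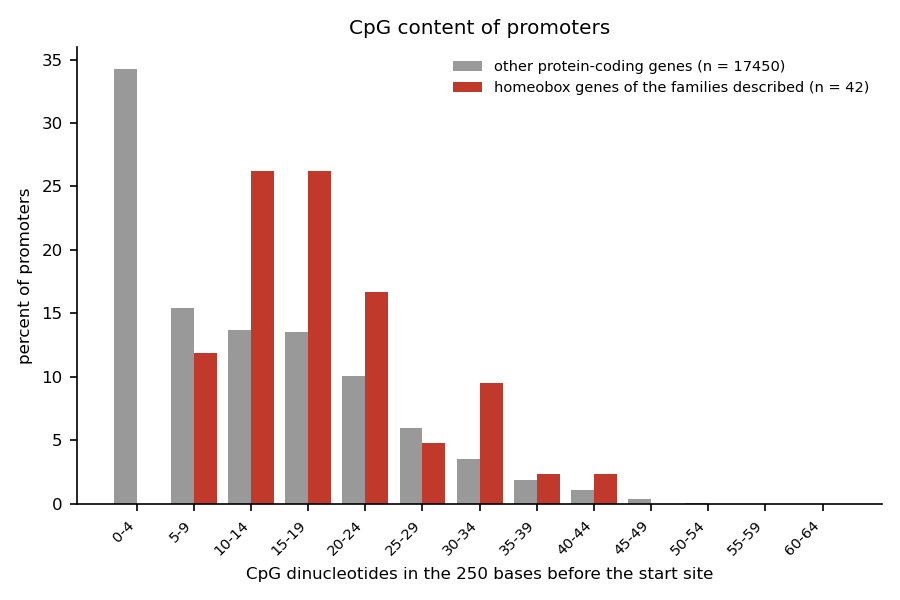
Share of promoters (percent, vertical axis) by the number of CpG dinucleotides in the 250 bases before the start site (horizontal axis), for 42 homeobox genes (red) and 17450 other protein-coding genes (grey). The lowest class, 0 to 4 CpGs, holds 34.28% of the other genes and none of the homeobox genes.

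Short motifs were rare in these windows. The core site AGGTCA of nuclear receptors such as the RA receptors, searched on both strands, was found in 3 of the 42 (*Barhl1*, *Dlx1* and *Tlx3*), or 7.143%, and in 12.59% of protein-coding promoters. The homeodomain core TAATTA, which is its own reverse complement, was found in 1 (*Msx2*), or 2.381%, and in 4.453% of protein-coding promoters. A match is only a match of letters, and windows of this length do not include distant enhancers.

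Iroquois genes pattern the neural tube, heart and limbs, and in mammals they form a pair of clusters of 3 genes. Of the 6 genes 5 rose and none fell. *Irx3*, which marks intermediate progenitors of the neural tube, read -2.56, -2.70, -3.09 and -2.82 on untreated arrays 1 to 4 (log2 intensity relative to the 75th percentile, in this order throughout) and 2.53, 2.27, 2.56 and 2.61 on RA arrays 1 to 4 (probe at mm9 chr8:94322476-94322535). It rose by 5.28 ± 0.16 on the log2 scale (SE, n = 4 against 4) with an adjusted p of 7.88e-07 (25.24-fold with normexp, against 38.97-fold), and replicates of each group lay within 1 log2 unit of each other. *Irx5*, which lies next to it, was on no untreated array well above background, at -5.83, -5.86, -6.07 and -6.74, and was well above it on every RA array, at -2.35, -2.46, -2.998 and -2.50. This is a rise of at least 7.563-fold (adjusted p = 1.28e-05), with a bound of 2.69-fold with normexp and 3.01-fold in the authors' values. The last gene of the cluster, *Irx6*, was not called, with a log2 change of -0.45 ± 0.30 (adjusted p = 0.235), so the cluster did not move as a block.

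In the other cluster, on chromosome 13, all 3 genes rose. *Irx1* read -2.31, -2.01, -3.68 and -2.09 without RA and 1.10, 1.05, 0.12 and 0.27 with RA (mm9 chr13:72095735-72095794). The change was 3.16 ± 0.41 (adjusted p = 0.00034), with untreated array 3 lower than the rest. *Irx2* rose by 1.72 ± 0.29 (adjusted p = 0.00156), and its second probe gave 1.61. On slide 1 alone it was not called (adjusted p = 0.0998). *Irx4*, a ventricular gene of the heart, rose least, by 0.74 ± 0.20 (adjusted p = 0.0176). Its call was lost when RA array 3 was left out (0.64, adjusted p = 0.0515), with normexp (1.281-fold), with normexp and quantile normalization (1.464-fold), in the authors' values (1.459-fold) and on each slide alone (adjusted p of 0.133 and 0.149).

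**Figure D3:**
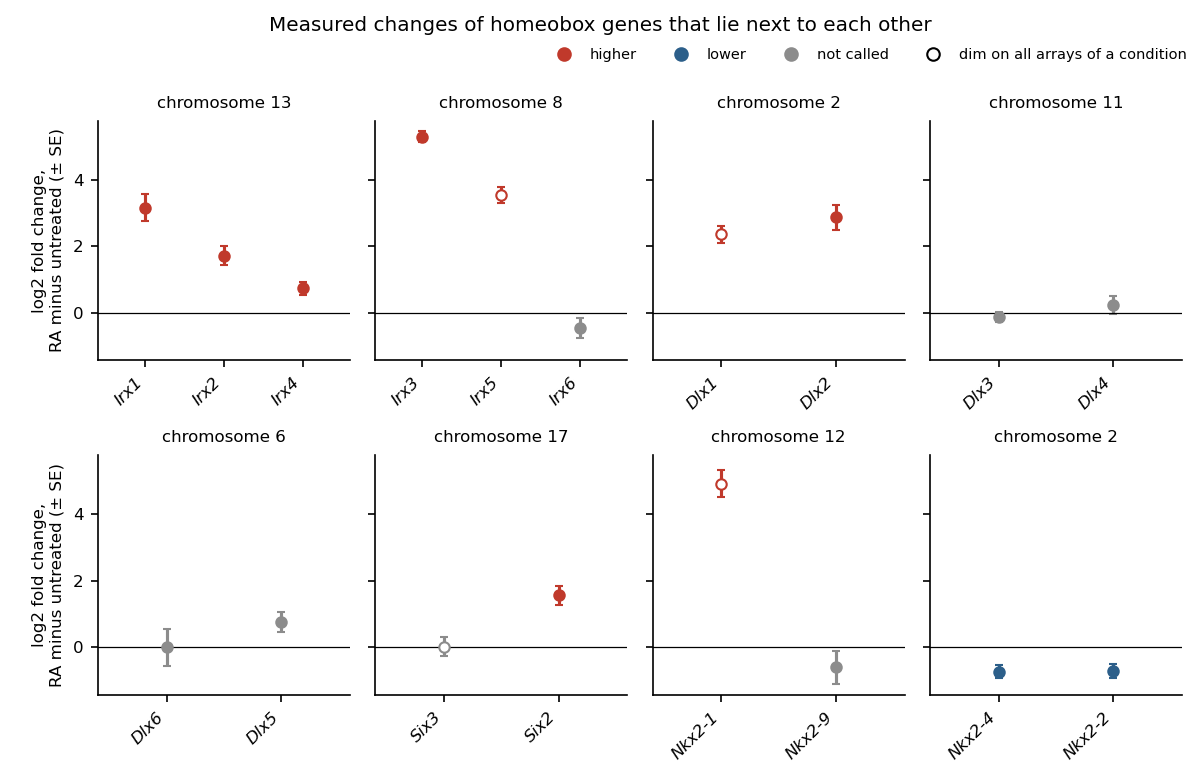
Measured log2 change (RA minus untreated, ± SE, n = 4 against 4) of homeobox genes that lie next to each other, ordered along their chromosome in each panel, with higher genes in red, lower genes in blue and genes not called in grey. Open points are genes dim on all arrays of at least 1 group. The panels of *Irx1* to *Irx4*, *Dlx1* with *Dlx2* and *Nkx2-4* with *Nkx2-2* show genes called in 1 direction, and the others do not.

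The NK genes include the classic markers of ventral neural tube, lung and thyroid, and heart. Of 14 genes, 4 rose and 4 fell. *Nkx6-1*, which marks ventral neural progenitors and later the beta cells of the pancreas, read -4.38, -3.58, -4.34 and -3.90 without RA and -0.51, -1.07, -0.41 and -0.47 with RA (mm9 chr5:102088319-102088378). It rose by 3.44 ± 0.24 (adjusted p = 1.3e-05), or 10.84-fold and 5.207-fold with normexp, and RA array 2 was the lowest of its group. *Nkx2-5*, a core regulator of heart formation, read -4.11, -3.93, -3.75 and -4.26 without RA and -0.39, -0.54, -0.98 and -0.55 with RA (mm9 chr17:26975621-26975680). The rise was 3.40 ± 0.18 (adjusted p = 4.74e-06), or 10.56-fold and 5.073-fold with normexp, with narrow groups far apart.

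*Nkx2-1*, required for lung, thyroid and ventral forebrain, was not well above background on any untreated array, at -7.31, -7.75, -7.76 and -7.23. On the RA arrays it was well measured at -1.91, -3.89, -2.64 and -1.94 (mm9 chr12:57633119-57633178), and RA array 2 was the lowest of its group. The rise was at least 8.29-fold (adjusted p = 3.63e-05), with a bound of 2.649-fold with normexp. Its neighbour *Nkx2-9*, an early floor plate gene, was detected on all arrays and not called (-0.59 ± 0.50, adjusted p = 0.348), and its untreated values ranged from -0.27 to 2.14.

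*Nkx1-2*, a gene of the early caudal epiblast and spinal cord, was well above background on 2 untreated arrays, with values of -5.04, -5.38, -6.20 and -5.91, and on all 4 RA arrays, with -2.68, -3.12, -2.54 and -2.68. Its brightest probe rose by 2.88 ± 0.27 (adjusted p = 5.7e-05), or 7.347-fold and 2.314-fold with normexp. The mean of its probes rose 1.606-fold. The gene's probes disagreed, since a second probe that was well above background on 7 of 8 arrays gave -0.52 ± 0.28 (adjusted p = 0.173) and the other was dim throughout. The rise therefore holds for 1 of 3 probes, and the second probe was the brighter one on every untreated array.

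*Nkx6-3* was the only member well above background on all untreated arrays and on no RA array. This gene, known from the stomach, read -1.23, -2.34, -2.59 and -1.26 without RA and -8.01, -6.13, -7.20 and -6.52 with RA, where it was not well above background on any array (mm9 chr8:24268914-24268973). The fall was at least 17.44-fold (adjusted p = 5.41e-05), and the bound was 4.918-fold with normexp, 4.446-fold with normexp and quantile normalization and 4.408-fold in the authors' values. Its dimmer second probe was above background on 1 untreated array only, and its change at the bound, -0.22 on the log2 scale, stayed under the threshold.

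The other falls of NK genes were small. *Nkx2-2*, which marks the most ventral neural progenitors, read -2.72, -2.94, -2.92 and -2.55 without RA and -3.83, -2.96, -3.49 and -3.68 with RA. RA array 2 came within 0.1 of the untreated arrays. The fall was 1.632-fold (adjusted p = 0.0267), and it was not called with the replicate number as a block (adjusted p = 0.0639). The call was also lost on leaving out untreated array 1 (1.61-fold) or 4 (1.548-fold), or RA array 1 (1.509-fold), 3 (1.633-fold) or 4 (1.561-fold), with adjusted p of 0.0603, 0.0677, 0.0773, 0.0583 and 0.0753. *Nkx2-4*, which lies next to it on chromosome 2, read -4.56, -4.58, -4.21 and -4.52 without RA and -5.17, -4.76, -5.46 and -5.37 with RA, a fall of 1.651-fold (adjusted p = 0.0152). *Nkx2-6*, a gene of the pharynx and heart, read -2.70, -3.36, -3.42 and -3.34 without RA and -4.61, -3.80, -4.13 and -3.78 with RA, a fall of 1.831-fold (adjusted p = 0.0199). With the block its adjusted p was 0.0586. None of the 3 calls held when arrays were quantile-normalized, where changes of all genes centre on 0, or with normexp. Relative to the median of all genes, the 3 changes were -0.43, -0.44 and -0.59. The 3 calls were also lost on each slide alone and in the authors' values. In the authors' values the falls were 1.214-fold for *Nkx2-2*, 1.094-fold for *Nkx2-4* and 1.21-fold for *Nkx2-6*.

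The remaining NK genes, among them *Nkx1-1*, *Nkx2-3*, *Nkx2-9*, *Nkx3-2* and *Nkx6-2*, were not called. *Nkx1-1* read -3.74, -4.79, -4.28 and -4.24 without RA and -3.56, -4.14, -4.28 and -3.58 with RA, with a log2 change of 0.37. Its second probe was not well above background on any RA array and was not called. *Nkx3-2*, a gene of the axial skeleton, read -4.81, -4.63, -4.97 and -4.81 without RA and -5.16, -4.09, -4.54 and -4.82 with RA. The groups overlapped for both genes. *Nkx2-3* was higher in the fit with the replicate block (0.90, adjusted p = 0.0194) and not without it (adjusted p = 0.191).

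Msx genes are Bmp targets of the dorsal neural tube, neural crest and limb, and all 3 rose. *Msx2* read -1.76, -1.20, -1.98 and -2.09 without RA and 2.64, 2.15, 2.03 and 1.69 with RA (mm9 chr13:53562318-53562377). The change was 3.89 ± 0.26 (adjusted p = 1.17e-05). *Msx1* read -3.10, -3.22, -3.33 and -2.99 without RA and -0.06, 0.15, -0.28 and 0.38 with RA (mm9 chr5:38212305-38212364), a rise of 3.20 ± 0.18 (adjusted p = 5.17e-06), or 9.216-fold and 5.901-fold with normexp. Both genes were well measured on all 8 arrays and the groups lay far apart. *Msx3* was detected on the RA arrays only and rose at least 3.286-fold (adjusted p = 0.000909) on its brightest probe, while its other probe was dim on all 8 arrays. The call was lost with normexp (1.429-fold) and with the mean of both probes (adjusted p = 0.0557).

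Dlx genes act in forebrain interneurons, branchial arches and limbs and lie in pairs that face each other. The pair *Dlx1* and *Dlx2* rose and the other 4 genes were not called. *Dlx2* read -5.53, -4.77, -5.10 and -6.15 without RA and -1.90, -2.11, -3.16 and -2.92 with RA (mm9 chr2:71381553-71381612). It was well above background on 2 untreated and 4 RA arrays and rose by 2.87 ± 0.37 (adjusted p = 0.000369), or 7.292-fold and 2.499-fold with normexp. *Dlx1* was detected with RA only, at least 1.684-fold higher (adjusted p = 0.000152). The bound fell under the threshold on leaving out untreated array 2 (1.396-fold), with normexp (1.163-fold), with normexp and quantile normalization (1.352-fold) and in the authors' values (1.345-fold). *Dlx5* missed the threshold (0.76 ± 0.29, adjusted p = 0.071) and passed it with the replicate block (adjusted p = 0.0174), with quantile normalization (0.0207), with the filter on dim probes (0.0435) and without RA array 3 (0.0254). *Dlx3*, *Dlx4* and *Dlx6* changed by -0.12, 0.25 and 0.01.

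Proteins of the sine oculis family work with Eya and Dach partners in eye, ear, muscle and kidney. Of 6 genes, *Six2* and *Six5* rose and none fell. *Six2*, a marker of nephron progenitors, read -1.79, -2.88, -2.29 and -2.45 without RA and -0.82, -0.25, -0.80 and -1.27 with RA (mm9 chr17:86083634-86083693). The rise was 1.57 ± 0.28 (adjusted p = 0.00222), and a second probe, detected on RA arrays only, rose by at least 1.16 on the log2 scale. *Six5* rose by 1.32 ± 0.28 (adjusted p = 0.00496). *Six2* was not called on slide 1 alone (adjusted p = 0.104), nor *Six5* on slide 2 alone (adjusted p = 0.103). The eye genes *Six3* and *Six6* were well above background on no array, and *Six4* was not called, with a log2 change of -0.13 and an adjusted p of 0.595. Of the partner genes *Eya1* to *Eya4*, *Dach1* and *Dach2*, 3 of 6 rose (*Dach1* by 4.87, *Eya4* by 3.41 and *Eya2* by 2.87 on the log2 scale) and none fell. *Eya4* was well above background on only 1 untreated array, so its value includes dim arrays.

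Emx and Vax genes pattern the forebrain and eye, and *Emx2* and *Vax1* lie on chromosome 19 with 3 protein-coding genes between them. Both were detected on RA arrays only. *Emx2* read -7.22, -7.61, -7.70 and -7.17 without RA and -2.87, -3.54, -3.52 and -3.40 with RA (mm9 chr19:59539142-59539201). It rose at least 4.971-fold (adjusted p = 3.8e-06), with a bound of 1.752-fold with normexp and 2.003-fold in the authors' values. *Vax1* rose at least 2.785-fold (adjusted p = 0.000271) and both its probes were called. With normexp its bound was 1.353-fold and it was not called. *Emx1* (0.48 ± 0.29) and *Vax2* (0.39 ± 0.20), which share chromosome 6, were not called.

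En and Gbx genes place the midbrain-hindbrain boundary, and *Mnx1* marks motor neurons. *En2* read 1.08, 0.85, 1.30 and 0.66 without RA and -1.88, -1.32, -1.05 and -1.56 with RA, as the mean of 10 spots per array (mm9 chr5:28498468-28498528). The fall was 2.42 on the log2 scale, or 5.361-fold (adjusted p = 5.13e-05). *Gbx2*, which is also known as a target of leukemia inhibitory factor signalling in ES cells, read 1.22, 1.12, 0.25 and 1.05 without RA and -2.45, -0.71, -0.17 and -1.15 with RA (mm9 chr1:91825013-91825072). The fall was 4.094-fold (adjusted p = 0.00752), and the RA arrays spread over 2.28 log2 units. Both genes were well above background on all 8 arrays, and their groups did not overlap.

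*Gbx1* went the other way, but not evenly. It read -3.90, -3.89, -3.63 and -3.45 without RA and -3.10, -3.09, -0.88 and -0.72 with RA. The mean rise was 1.77 ± 0.57 (adjusted p = 0.0373), and RA arrays 3 and 4 stood more than 2 log2 units above RA arrays 1 and 2. The call was lost on leaving out any untreated array (adjusted p of 0.0851, 0.0788, 0.0663 and 0.0616 without arrays 1 to 4), RA array 3 (1.41, adjusted p = 0.0905) or RA array 4 (1.36, adjusted p = 0.0833). It was also lost with the slide as a block (adjusted p = 0.051), on each slide alone (0.165 and 0.171), in the authors' values (0.0518) and with normexp and quantile normalization (0.0511), and with normexp the rise was 2.146-fold. The second probe of the gene had the same split, with -3.80, -3.92, -1.78 and -1.63 on the RA arrays. *Mnx1* was above background on 3 RA arrays and no untreated array, and its bound of 1.307-fold did not reach the threshold.

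*Dbx1*, which marks progenitors at the middle of the neural tube, had the same split of RA arrays. It was not well above background without RA, at -7.30, -7.69, -7.73 and -7.28, and with RA it read -4.49, -4.29, -1.41 and -0.41 (mm9 chr7:56887073-56887132). The rise was at least 7.985-fold (adjusted p = 0.00215), with a bound of 2.784-fold with normexp. Arrays 3 and 4 lie on different slides, and each slide also held 1 of the 2 lower arrays. The same arrays stood apart in marker genes. The summed level of the RA response genes was 6.83, 6.95, 7.77 and 7.56 on RA arrays 1 to 4, and that of the ES cell markers 6.15, 6.90, 5.58 and 5.51. Smooth muscle and fibroblast markers summed to 8.96, 8.85, 8.23 and 8.10. Mesoderm markers summed to 1.91, 1.77, 1.08 and 1.43 and primitive endoderm markers to 5.13, 4.58, 5.34 and 5.22, while the neural and trophoblast sums of arrays 3 and 4 overlapped those of arrays 1 and 2. *Cyp26b1*, an RA-degrading enzyme, read 0.65, 0.49, 3.85 and 2.17, and *Dhrs3*, another RA response gene, read 1.40, 0.81, 4.26 and 3.32. These 2 genes were chosen after their values were seen. The part of this difference between RA cultures in the values of *Dbx1* and *Gbx1* was not tested. The bound was 4.759-fold without RA array 4 and 12.22-fold without RA array 1, and the gene was called in both cases. Of the 45 members well above background on all 4 RA arrays, 4 (8.889%) ranged over more than 2 log2 units among them (*Dbx1*, *Gbx1*, *Gbx2* and *Nkx2-3*), against 1.688% of 21980 genes. Smaller splits of RA arrays 3 and 4 from 1 and 2 were seen in other called members. Among them were *Irx1* and *Dlx2* (lower on arrays 3 and 4) and *Tlx2* and *Six5* (higher).

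**Figure D4:**
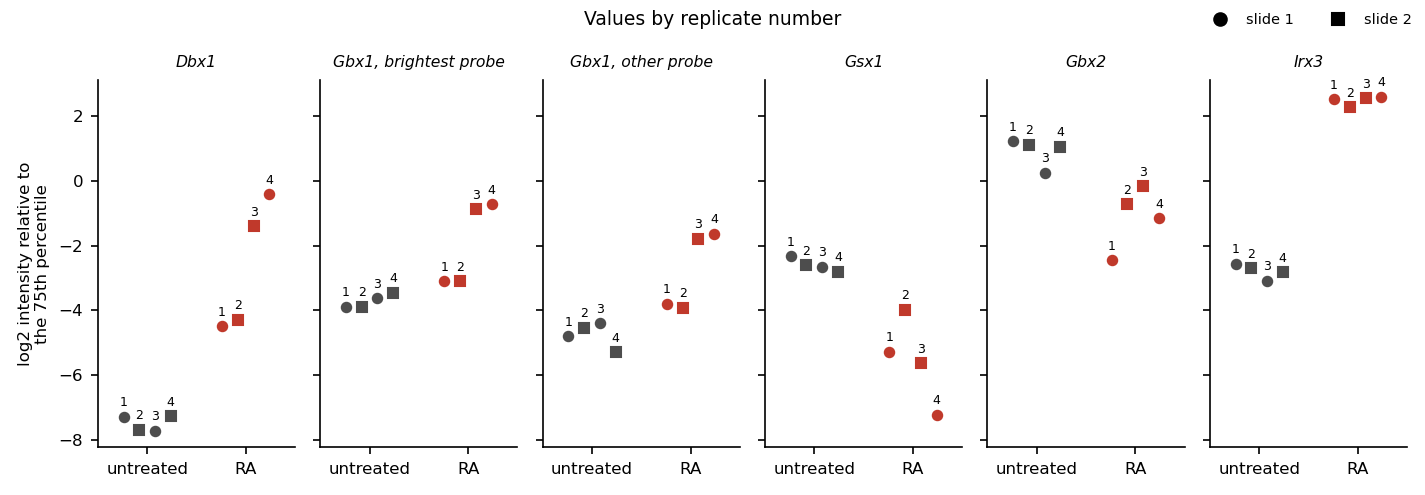
Log2 intensity relative to the 75th percentile of the array (vertical axis) of 5 genes, 1 of them with both probes, on untreated (grey) and RA (red) arrays, numbered by replicate, with circles for slide 1 and squares for slide 2. RA replicates 3 and 4 stand above 1 and 2 for *Dbx1* and both probes of *Gbx1*, *Gsx1* and *Gbx2* scatter otherwise, and *Irx3* is even.

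Among Evx and Gsx genes, *Gsx1*, a dorsal progenitor gene of brain and spinal cord, fell. It read -2.34, -2.61, -2.66 and -2.81 without RA and -5.28, -3.98, -5.63 and -7.23 with RA, where array 4 was not well above background (mm9 chr5:148002422-148002481). The fall was 7.604-fold (adjusted p = 0.00359), a value that includes the dim array, and 5.13-fold without it. It was 2.694-fold with normexp and 2.374-fold in the authors' values, and 13.54-fold on slide 1 and 4.271-fold on slide 2, where it was not called (adjusted p = 0.0513). *Evx1*, a primitive streak gene, spread widely, at -2.38, -4.33, -6.12 and -5.12 without RA and -5.16, -4.75, -5.90 and -6.06 with RA, and was not called (-0.98 ± 0.72, adjusted p = 0.28). *Evx2* was dim throughout, at -7.32, -7.70, -7.78 and -7.24 without RA and -6.29, -7.60, -7.91 and -7.86 with RA. *Gsx2* was not called (-0.49 ± 0.32).

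In the last group *Barx1*, *Dbx1*, *Tlx1* and *Tlx2* rose and *Barhl1* fell, out of 10 genes. *Barx1*, a gene of the stomach mesenchyme and teeth, was not well above background without RA, at -7.18, -7.33, -6.62 and -7.17, and read -2.96, -3.19, -3.57 and -2.97 with RA (mm9 chr13:48761442-48761501), a rise of at least 5.558-fold (adjusted p = 4.77e-06). The bound was 1.863-fold with normexp and 2.114-fold in the authors' values. *Tlx2*, known from enteric neurons, was likewise not well above background without RA, at -7.36, -5.80, -6.26 and -5.75, and read -4.08, -4.02, -2.92 and -3.45 with RA. It rose at least 3.644-fold (adjusted p = 0.000819), with a bound of 1.618-fold with normexp. *Tlx1*, the spleen gene, rose 2.456-fold (adjusted p = 0.0154) with overlapping groups, and was not called with normexp (1.335-fold) or on slide 2 alone (adjusted p = 0.313). *Tlx3*, the remaining gene of this family, was dim on all arrays, at -7.18, -7.59, -6.45 and -6.84 without RA and -7.69, -7.52, -7.79 and -7.69 with RA. *Barhl1*, a gene of the inner ear and cerebellum, read -0.38, -0.89, -0.83 and -0.84 without RA and -1.56, -1.36, -1.95 and -1.46 with RA, a fall of 1.801-fold (adjusted p = 0.00645). Its second probe was well above background on 1 array only. The call was lost with the mean of both probes (1.249-fold, adjusted p = 0.55) and on slide 1 (adjusted p = 0.0978) or slide 2 alone (adjusted p = 0.162).

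**Figure D5:**
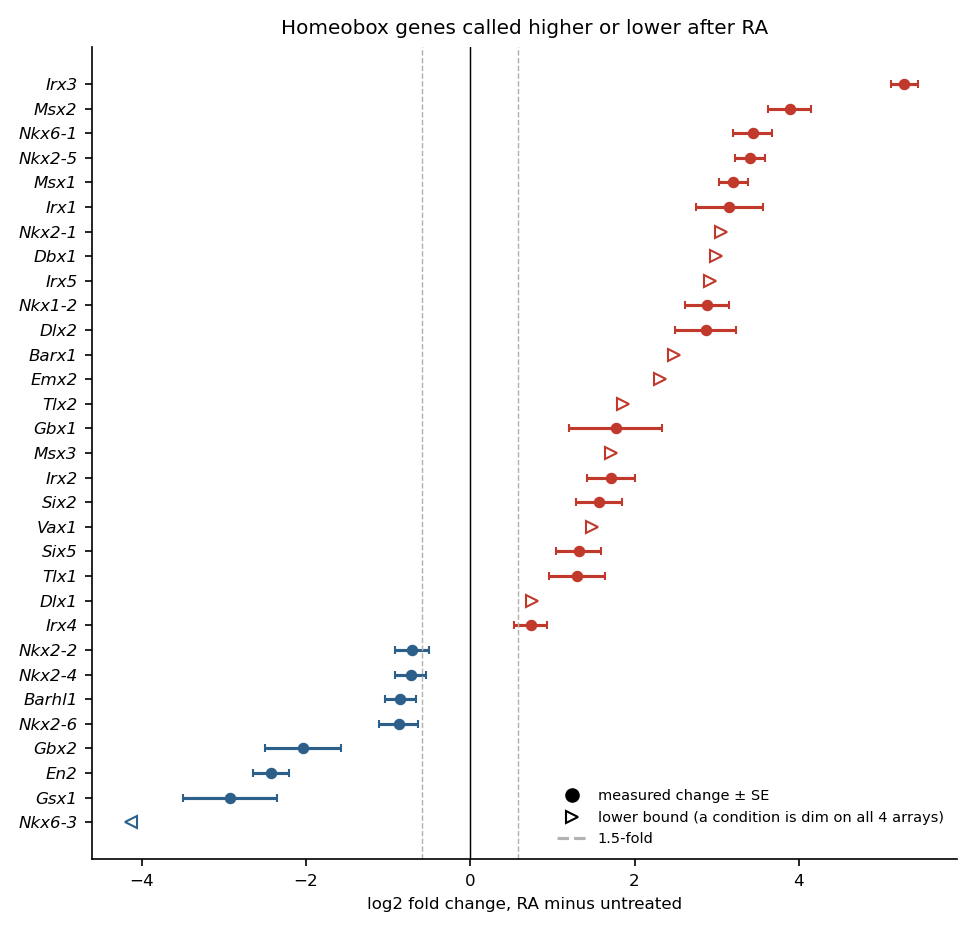
Log2 fold change (RA minus untreated) of the 31 homeobox genes called higher (red) or lower (blue), ordered by size. Circles are measured changes with SE (n = 4 against 4), open triangles are lower bounds for genes dim on all 4 arrays of a group, and dashed lines mark 1.5-fold. Of the rises 13 exceed 4-fold, and of the falls 4 do and 4 stay under 2-fold.

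The genes that went from no untreated array to all 4 RA arrays were 9 in number (*Barx1*, *Dbx1*, *Dlx1*, *Emx2*, *Irx5*, *Msx3*, *Nkx2-1*, *Tlx2* and *Vax1*), or 15.52% of the members, against 1.3% of all genes. The reverse held for *Nkx6-3* alone, or 1.724%, against 1.27%. With a more lenient flag, which asks only that a spot be positive and significant, 3 of the 9 still had no untreated detection (*Dbx1*, *Emx2* and *Nkx2-1*). Among the 31 members well above background on all 8 arrays, where no bound is needed, 11 were higher (35.48%) and 6 were lower (19.35%), against 18.1% and 27.5% of the 20404 genes of the array with the same property.

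The study's list of genes with a Cbx8 peak after RA names 14 of the 58 members. Of these, 7 were higher (*Emx2*, *Irx1*, *Irx5*, *Nkx2-1*, *Nkx6-1*, *Six2* and *Tlx2*) and 2 were lower (*Gbx2* and *Nkx2-4*). *Evx1*, *Evx2*, *Nkx1-1*, *Nkx3-2* and *Tlx3* were not called. Of the other 44 members 16 were higher and 6 were lower. The shares were 50% and 36.36% for higher and 14.29% and 13.64% for lower. On untreated arrays 6 of the 14 (42.86%) and 11 of the 44 (25%) were well above background on no array. The share of all genes of the array in this state is not given here, and these differences were not tested.

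Signals that act on these genes were read on the same arrays, from a list of 12. *Shh*, the ventral signal of the neural tube, was not well above background without RA and read at a mean of -1.18 ± 0.67 (SD, n = 4) with RA, while its targets *Gli1* and *Ptch1* fell by 2.19 and 1.53 on the log2 scale. *Gli3*, which mainly represses the pathway, rose by 2.61. In all 5 of the 12 rose and 2 fell. Many of these homeodomain proteins act through co-repressors of the Groucho family. Of 6 genes of this family, not all of which encode full co-repressors, 1 rose (*Tle2*) and 3 fell (*Tle4*, *Tle6* and *Aes*). *Tle1* and *Tle3* were not called.

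The treatment and the cell types were read from lists of markers. All 10 RA response genes rose, led by *Rarb* with a log2 change of 7.21. All 8 ES cell markers fell, and their summed level was 8.81 to 9.29 (log2) without RA and 5.51 to 6.90 with RA. Of 7 neural markers 2 rose (*Nes* and *Olig2*) and 1 fell (*Tubb3*), with *Sox1* and *Pax6* detected on all 8 arrays and not called. All 9 primitive endoderm markers rose (summed level 0.56 to 1.32 and 4.58 to 5.34), as did 6 of 7 smooth muscle and fibroblast markers (1.78 to 2.43 and 8.10 to 8.96) and the 4 trophoblast markers that the array names (-0.99 to 0.06 and 4.01 to 4.46). Of 6 mesoderm markers 1 rose (*Hand1*) and 1 fell (*Mesp1*). On the untreated arrays 6 of the 9 primitive endoderm markers and 3 of the 4 trophoblast markers were well above background on all 4 arrays. *Ttr* and *Elf5* were well above it on none. The part of other cell types in the changes of the homeobox genes was not tested, and in these bulk cultures fewer cells of a type and less RNA per cell cannot be told apart.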

How the data were processed

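E14 mouse ES cells, untreated or treated with RA, were measured on 8 Agilent 1-colour arrays, 4 per group, and no array was left out. Replicates and groups were taken from the labels. The authors deposited scanner output of Agilent Feature Extraction (version 10.7.3.1), in which the intensity of a spot is corrected for background and detrended within the array, and not normalized between arrays. Other deposited columns flag, as 0 or 1, whether a spot is an outlier, saturated or well above background. A second table deposited by the authors holds processed log2 values with the same median, 6.89, on every array, whose normalization is not given in the sources used here. Its scale follows the scanner values (r of 0.963 to 0.975 per array), and it was used as an alternative only.

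From the log2 processed intensity of each spot the array's 75th percentile (over 59305 non-control spots) was subtracted. Outlier spots, 124 to 145 per array, were dropped, and averaging replicate spots gave 55681 probes. No pseudocount and no filter on dim probes was used. The groups were compared with limma (version 3.58.1, R version 4.3.3) by lmFit and eBayes, with Benjamini-Hochberg adjustment over all probes. Between 56.7% and 62.7% of spots were well above background and none was saturated. The number of arrays limits the precision. Tables were made in Python (version 3.11.15) with pandas (version 2.3.3). In a simulation of the comparison of RA with untreated arrays on 55681 probes, 131 of 200 probes changed by 2 on the log2 scale were recovered and 6 unchanged probes were called. Its calls used the fitted change without the rule for dim groups, and only these 200 probes were changed. The simulation therefore does not give the error rates of the calls reported for the members.

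The arrays lie on 2 slides, each scanned at 1 time, with 2 arrays of each group on each. Both groups number their replicates 1 to 4. Deviations from the group mean of same-numbered arrays, over the 27493 probes detected on all arrays, correlated at 0.186, 0.189, 0.104 and 0.151, and those of differently numbered arrays at -0.269 to 0.142. In the alternative with the replicate number as a block, the numbers were treated as pairs because every same-number value was above 0.1. However, 2 of the 12 other values exceeded the lowest of these. The main fit, from which the calls were taken, did not use the pairs.

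Values on every array are given for the 12 largest rises and 8 largest falls (at the bound where there is one), the members with a Cbx8 peak and *Nkx6-1*, *Nkx2-2*, *Nkx2-1* and *Nkx2-5*. *Gbx1* was added after its values were seen. The members and all lists were chosen with earlier results of these data known. Array positions are on mm9, and promoters come from RefSeq tables of GRCm38.p6, where the array names of all 58 members are current symbols and 42 have an entry. Alternatives were quantile normalization, normexp background correction with offset 50, the authors' log2 values, a filter on dim probes, the slide or the replicate number as a block, each slide alone, leaving out each array, the mean of all probes of a gene, a 2-fold threshold, measured means in place of bounds and another detection flag. The individual values of 2 members, neither of them called, are not reported here, although counts over the members include them.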

Additional observations from a re-analysis of the deposited data

Results flagged for a closer look

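In 58 groups of 4 arrays (29 genes whose array values are given, in both conditions), 4 groups had 1 array far from the other 3, and chance alone gives about 1 in 20 such groups, or 2.9. *Nkx6-1* read -1.07 on RA array 2 and -0.51 to -0.41 on the other RA arrays, all of them above the untreated arrays. *Nkx2-6* read -2.70 on untreated array 1 and -3.42 to -3.34 on the others. *Barhl1* read -0.38 on untreated array 1 and -0.89 to -0.83 on the others. *Nkx2-4* read -4.21 on untreated array 3 and -4.58 to -4.52 on the others. In the last 3 cases the array lay on the side away from the RA arrays. Without that array the log2 changes were -0.71 for *Nkx2-6*, -0.73 for *Barhl1* and -0.64 for *Nkx2-4*, and all 3 were still called.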

How the results depend on the processing

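The count of 23 higher members ranged from 18 (normexp) to 25 (quantile normalization) over the alternatives, and from 22 to 24 when 1 array was left out. The 8 lower members became 5 under quantile normalization, normexp, both together and the authors' log2 values, and *Nkx2-2*, *Nkx2-4* and *Nkx2-6* were the 3 lost in each case. They became 4 at a 2-fold threshold, 4 on slide 1 alone and 3 on slide 2 alone, where only 4 arrays enter the fit, and 7 or 8 when 1 array was left out. On each slide alone 19 members were higher. With the replicate number as a block, which pairs the cultures, 25 members were higher and 6 lower. *Dlx5* and *Nkx2-3* were gained and *Nkx2-2* and *Nkx2-6* lost, and the block changed no other call among the members. Of the 9 members well above background on all RA arrays and no untreated array, 3 remained with the lenient flag. No member changed sign and call together. Over all members and the alternatives that refit the values, 966 values stayed on their side of the threshold, 58 called changes fell under it and 9 others passed it. The 966 include the values of the 7 members dim on all arrays, for which the rule allows no call. These counts leave out the 2-fold threshold, which lost *Dlx1*, *Irx4*, *Barhl1*, *Nkx2-2*, *Nkx2-4* and *Nkx2-6*, and measured means in place of bounds, which added *Mnx1*. Normexp lost *Dlx1*, *Irx4*, *Msx3*, *Tlx1* and *Vax1* among the rises. The folds of 18 of the 31 called members moved by more than 1.5 times with normexp, and of 17 in the authors' values (*Nkx2-1*: at least 2.649-fold and 2.953-fold, *Irx3* 25.24-fold with normexp). With the mean of all probes 11 moved that far, in both directions. The bound of *Dbx1* went from 7.985-fold to 24.94-fold, and the fold of *Nkx1-2* from 7.347-fold to 1.606-fold. Leaving out 1 array moved only *Dbx1* that far. Genes near background on a group carry only a lower bound, and 7 members cannot be assessed at this signal.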
